A study of Mus musculus with 30 samples.

Results

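Cathepsins are proteases of the lysosome, the acidic compartment in which macrophages break down proteins taken up from outside or delivered from within the cell. Most are cysteine proteases of the papain fold, whereas cathepsin D is an aspartic protease and cathepsin A a serine carboxypeptidase. They are made as inactive precursors, sorted to the lysosome and activated by cleavage, and several of them prepare peptides or the invariant chain for antigen presentation. The genes followed here are *Ctsa*, *Ctsb*, *Ctsc*, *Ctsd*, *Ctsh*, *Ctsk*, *Ctsl*, *Ctss* and *Ctsz*, 9 of the 54146 genes in the count table of the series, chosen by their symbols. The list was drawn up with earlier results of these data known.

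Counts came from RNA-seq of J774A.1, an established line of mouse cells with macrophage character. WT1, WT2 and WT3 are wild-type (WT) lines grown from single cells that had not been electroporated. KO1 and KO2 are knockout (KO) lines from electroporated cells in which CRISPR deleted both copies of the B2_Mm2.*Dicer1* element, a short repeat in the first intron of *Dicer1*, and each KO line is 1 clone. Each of the 5 clones was left untreated (UT) or was treated with mouse interferon-gamma (IFNG, 100 ng/mL, 4 h). Every combination of clone and treatment has 3 libraries, which makes 30 in all. Nothing in the labels says whether the 3 libraries of a group came from separate cultures, so p-values within a clone measure only the spread between its libraries.

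Libraries held 15566122 to 37992642 counted fragments (median 23682133.5). *Irf1*, an IFNG target, had a log2FC of 4.97 to 5.33 after IFNG over the 5 clones, and mean *Dicer1* levels in untreated cells were 105, 128 and 123 CPM (CPM are counts scaled to a common library size with TMM factors) in the WT clones and 71.5 and 104 CPM in KO1 and KO2. All 10 macrophage markers were detected, but their levels differed between clones. *Adgre1*, which encodes F4/80, had a mean of 10.2 CPM in untreated WT1, 101 and 42.2 CPM in WT2 and WT3, and 249 and 283 CPM in KO1 and KO2. *Lyz2*, the macrophage lysozyme, was also lowest in WT1, at 868 CPM against 1933 to 2564 CPM in the other untreated clones. By untreated mean, 4 of the 10 markers (*Adgre1*, *Cd68*, *Lyz2* and *Spi1*) were lowest in WT1 and the other 6 were not. Summed levels were at most 6.18 CPM for 5 dendritic cell markers, 2.92 CPM for 5 fibroblast markers and 0.122 CPM for 5 lymphocyte markers in any library. In these lists, 1 fibroblast marker (*Dcn*) and 2 lymphocyte markers, among them *Ncr1* of natural killer cells, had no count in any library. Having no count allows up to 0.079 to 0.193 CPM (3 counts, counting error only) depending on depth. *Pdgfra*, another of the fibroblast markers, reached 2.85 CPM. *Adgre1*, *Lyz2* and the other marker genes in the text were named after their values were seen.

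Promoter sequence was available for 7 of the 9 genes, from RefSeq on the GRCm38.p6 build, and not for *Ctsb* and *Ctsh*. The 250 bases before the RefSeq start are shown for *Ctss*, which was higher after IFNG in 4 clones, because this window held a short motif that is linked in general to interferon signalling. The window lies at chr3:95526536-95526785 on the plus strand and overlapped no annotated exon in GENCODE vM21. Capitals mark a match to the interferon-response motif (ISRE), here GAAA, any 2 bases and GAAA.
Ctss: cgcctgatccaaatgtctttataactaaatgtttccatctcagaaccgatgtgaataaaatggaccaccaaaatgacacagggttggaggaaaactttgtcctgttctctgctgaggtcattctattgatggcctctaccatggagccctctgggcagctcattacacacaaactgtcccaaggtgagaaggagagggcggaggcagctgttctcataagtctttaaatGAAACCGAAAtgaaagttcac
The match began 21 bases before the start. Searched on both strands, the ISRE letters were found in 2.98% of 32851 windows of the same length and in 1 of the 7 cathepsin genes with a sequence. CACGTG, the E-box core read by TFEB and related factors, was found in the *Ctsa*, *Ctsd* and *Ctsl* windows and in 6.02% of all windows, and its longer form, the CLEAR element (CACGTG with GT before and AC after it, and so always an overlap with the core), in none of the 7 genes and 0.24% of windows. A gene could have more than 1 window, and the *Ctsa* match lay in the one at chr2:164833523-164833772. That window and the *Ctsl* window lay inside the annotated span of their genes, and the *Ctsd* window overlapped its gene in part. A match describes letters only and is not evidence of binding.

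Cathepsin transcripts were abundant in these cells. The 9 genes together took 0.912% to 1.27% of all counted fragments in a library (median 1.13%), and *Ctsa*, *Ctsb* and *Ctsd* held 72.6% to 80.8% of that share. To compare genes, CPM values were divided by the exon length of each gene in kilobases. On this scale, *Ctsd*, the aspartic endopeptidase, had the highest level, with a median of 1423 CPM per kb over the 30 libraries (range 1162 to 1677). This rank may depend on exons shared with Gm49369. Every count of that gene was taken away and the rest divided by the 1543 unshared exon bases of *Ctsd*. The result had a median of 742 CPM per kb (range 600.2 to 925), above *Ctsz* in 14 and above *Ctsb* in 24 of 30 libraries. It is a low estimate, since the subtraction also takes away fragments that reach into unshared exons or were counted for Gm49369 alone. *Ctsz*, which encodes a carboxypeptidase also called cathepsin X, had a median of 721 CPM per kb and *Ctsb*, an endopeptidase that also removes dipeptides from protein ends, 700.3 CPM per kb. These neighbours overlapped, since *Ctsz* was above *Ctsb* in 20 of 30 libraries, and *Ctsb* came ahead of *Ctsz* when the length of the principal transcript was used instead (means of 844 and 748 CPM per kb). *Ctss*, the cysteine protease that cleaves the invariant chain in antigen-presenting cells, followed with a median of 399 CPM per kb, and *Ctsa*, a carboxypeptidase that also protects beta-galactosidase and neuraminidase from degradation, with 234 CPM per kb.

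*Ctsc*, a dipeptidyl peptidase that activates serine proteases of granules, had a median of 88.2 CPM per kb and *Ctsl*, a broad endopeptidase, 66.9 CPM per kb, with *Ctsc* the higher in 27 of 30 libraries. By principal transcript length, the mean of *Ctsc* was 214 instead of 91.9 CPM per kb and that of *Ctsh* 4.88 instead of 1.76, and *Ctsc* was above *Ctsl* in all 30 libraries. *Ctsh*, mainly an aminopeptidase, was far lower, with a median of 1.3 CPM per kb and a range of 0.154 to 4.63. *Ctsk*, the collagen-degrading cathepsin of osteoclasts, had 0 to 9 counts in a library and 107 counts over all 30. In 17 libraries its count was 3 or fewer, the floor used here, and it did not pass the count filter of any comparison between libraries, so counts of tested genes are out of 8. The other neighbours in this order, except *Ctsh* and *Ctsk* (29 of 30 libraries), kept it in all 30 libraries. Of 8 osteoclast markers, 5 had a median under 1 CPM, among them *Acp5* (at most 0.0444 CPM) and *Calcr* (no count). The others were detected. *Mmp9* had a mean of 457 CPM in untreated WT1 and 11 to 43.3 CPM in the other untreated clones. Over all libraries, *Nfatc1* was at 22.4 to 44.7 CPM and *Dcstamp* at 0.29 to 9.24 CPM. *Ctsk* and *Ctss* are neighbours on chromosome 3 with no annotated gene in the 17423 bases between them.

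**Figure D1:**
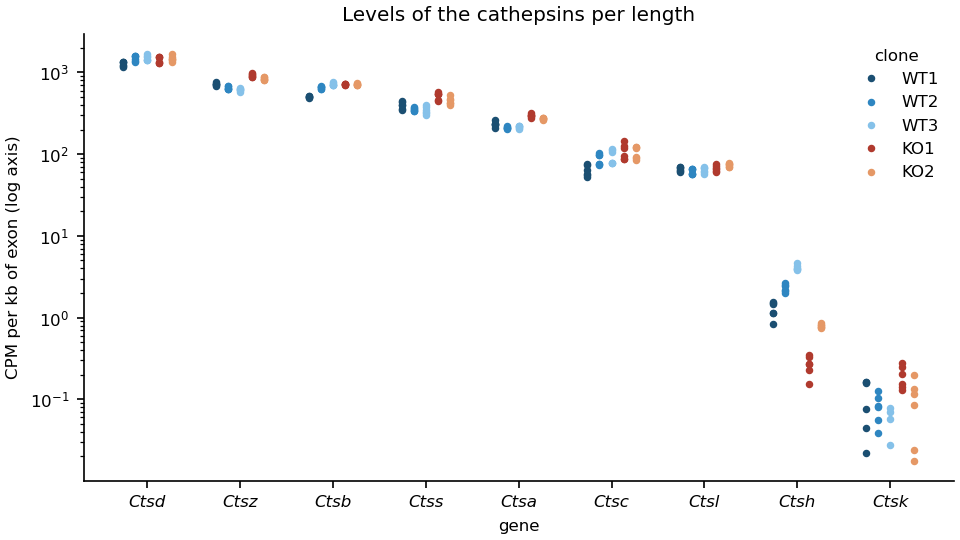
CPM per kilobase of exon on a log axis for the 9 cathepsin genes, with 1 point for each of the 30 libraries coloured by clone (libraries with no count are not drawn). *Ctsd* lay at 1162 to 1677 in every library, while *Ctsh* lay at 0.154 to 4.63 and was spread by clone.

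The genes lie on 6 chromosomes of mm10. *Ctsa* (ENSMUSG00000017760.16) spans positions 164832873 to 164841032 and *Ctsz* (ENSMUSG00000016256.10) positions 174427493 to 174439039 of chromosome 2. *Ctsk* (ENSMUSG00000028111.4) spans 95499256 to 95509362 and *Ctss* (ENSMUSG00000038642.10) 95526786 to 95556403 of chromosome 3. *Ctsc* (ENSMUSG00000030560.17) spans 88278085 to 88310888 and *Ctsd* (ENSMUSG00000007891.16) 142375911 to 142388038 of chromosome 7. *Ctsh* (ENSMUSG00000032359.14) spans 90054152 to 90076089 of chromosome 9, *Ctsl* (ENSMUSG00000021477.9) 64359337 to 64370890 of chromosome 13 and *Ctsb* (ENSMUSG00000021939.8) 63122462 to 63145923 of chromosome 14. Fragments were counted over all exons of a gene, and *Ctsd* shares 808 exon bases (34.4% of its exon length) on the same strand with Gm49369. Such fragments were counted for both genes, and the counts of Gm49369 came to 63.6% to 68.6% of those of *Ctsd*, so levels of *Ctsd* may include fragments of the other gene.

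To ask which cathepsins respond to IFNG, the 3 treated libraries of each clone were set against its 3 untreated ones. *Ctsc* was higher after IFNG in all 5 clones and *Ctss* in 4 of 5, while *Ctsl* was lower in the 3 WT clones and *Ctsd* in WT2, WT3 and KO1. *Ctsa*, *Ctsb* and *Ctsz* passed the test in no clone. In bulk RNA, a change in the number of cells that carry a transcript and a change in the transcript per cell cannot be told apart. All these differences were small beside that of *Irf1*, with the largest, for *Ctsc* in KO1, at 1.48-fold. Of the 8 genes tested, edgeR's quasi-likelihood test called 1 higher and 1 lower in WT1 (FDR-adjusted p-value under 0.05), 2 higher and 3 lower in WT2, 2 and 2 in WT3, 2 and 1 in KO1, and 2 and 0 in KO2. Over all genes tested, the share called higher was 11.8% in WT1, 17.4% in WT2, 18.6% in WT3, 16.2% in KO1 and 13.9% in KO2, and the share called lower 9.47%, 17%, 17.5%, 13.2% and 13.2%, which makes 21.2%, 34.5%, 36.1%, 29.4% and 27.1% called in all. The median log2FC of the 8 genes was between -0.035 and 0.014 over the clones, and that of all genes between -0.0083 and 0.0019. Of the 10 macrophage markers, 2 were called higher and 2 to 6 lower per clone after IFNG, and the part of this in the cathepsin values was not tested.

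*Ctsc* had levels of 305, 319 and 331 CPM untreated and 374, 431 and 443 CPM after IFNG in WT1, 429.8, 439 and 441 CPM untreated and 567.6, 569 and 598 CPM after IFNG in WT2 and 451, 453 and 457 CPM untreated and 616, 661 and 665 CPM after IFNG in WT3. In KO1 its levels were 506, 507 and 546 CPM untreated and 688, 741 and 831 CPM after IFNG, and in KO2 489, 517 and 533 CPM untreated and 689, 706 and 717 CPM after IFNG. In every clone the 3 treated libraries lay above the 3 untreated libraries. Of all genes that averaged 1 CPM or more, this pattern was seen in 18.5% in WT1, 20.3% in WT2, 23.1% in WT3, 19.1% in KO1 and 21.2% in KO2. The log2FC was 0.38 ± 0.071 (SE) in WT1, 0.42 ± 0.032 in WT2, 0.52 ± 0.041 in WT3, 0.57 ± 0.066 in KO1 and 0.46 ± 0.047 in KO2, with edgeR adjusted p-values from 9.31e-10 in WT2 to 0.00131 in WT1. All 5 calls were kept in each of the fits that left out 1 library, with a log2FC of 0.33 to 0.62.

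*Ctss* had levels of 471, 486 and 545 CPM untreated and 547, 590.1 and 614 CPM after IFNG in WT1, 455, 456 and 465 CPM untreated and 489, 499 and 512 CPM after IFNG in WT2 and 409.6, 433 and 441 CPM untreated and 475, 506 and 540.0 CPM after IFNG in WT3. In KO1 its levels were 605, 618 and 749 CPM untreated and 732, 748 and 786 CPM after IFNG, and in KO2 536, 569 and 576 CPM untreated and 629, 646 and 722 CPM after IFNG. The treated libraries lay above the untreated ones in each clone except KO1, where the highest untreated library, at 749 CPM, exceeded 2 of the treated libraries. The log2FC was 0.14 ± 0.031 in WT2, 0.26 ± 0.047 in WT3, 0.23 ± 0.073 in KO1 and 0.25 ± 0.056 in KO2, with edgeR adjusted p-values of 0.00125, 0.00027, 0.0283 and 0.00347. The WT1 value of 0.21 ± 0.072 had an adjusted p-value of 0.0525, which missed the threshold but passed it without untreated library 1 (0.0167) or treated library 1 (0.0425) and with DESeq2 (0.0243). Over all alternative fits in edgeR and DESeq2, the adjusted p-value in WT1 ran from 0.00986 to 0.228. The WT2 call was lost in 1 fit over all 30 libraries (0.18). The KO1 call was lost when untreated library 1 or 2 or treated library 2 or 3 was left out (adjusted p-values 0.0588 to 0.124).

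**Figure D2:**
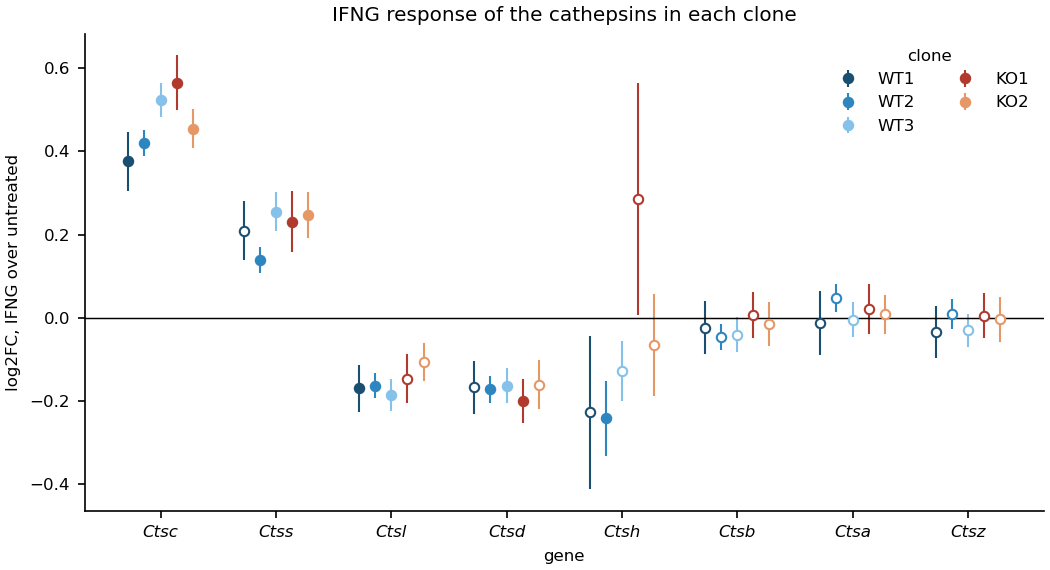
log2FC of IFNG-treated over untreated cells for the 8 tested cathepsin genes in each clone, with bars of 1 SE from edgeR and filled points where the adjusted p-value was under 0.05. All 5 *Ctsc* points lie above 0 and are filled, all 5 points of *Ctsl* and of *Ctsd* lie below 0, and *Ctsa*, *Ctsb* and *Ctsz* lie near 0.

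*Ctsl* moved the other way. Its levels were 423, 423 and 425 CPM untreated and 374, 374 and 375 CPM after IFNG in WT2 and 435, 444 and 451 CPM untreated and 374, 389 and 399 CPM after IFNG in WT3, with log2FC of -0.16 ± 0.03 and -0.18 ± 0.039 and edgeR adjusted p-values of 0.0002 and 0.000984. In WT1 the levels were 442, 449 and 456 CPM untreated and 391, 402 and 413 CPM after IFNG, and the log2FC of -0.17 ± 0.057 had an adjusted p-value of 0.04997, just under the threshold, which it missed with RLE factors (0.0647), without a count filter (0.0564) and in the fits that left out any 1 library other than untreated library 1 (0.0746 to 0.214). The log2FC was -0.15 ± 0.059 in KO1 and -0.11 ± 0.046 in KO2, with adjusted p-values of 0.0825 and 0.11. The KO1 value passed the threshold with DESeq2 (0.0448) and without untreated library 1 (0.0231) or treated library 1 (0.0415), and the KO2 value without treated library 3 (0.0163). Over all alternative fits in edgeR and DESeq2, adjusted p-values ran from 0.00206 to 0.267 in KO1 and from 0.0163 to 0.292 in KO2. Treated libraries lay below the untreated ones in each clone except KO1, where levels were 433, 468 and 496 CPM untreated and 397, 401 and 438 CPM after IFNG.

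*Ctsd* had levels of 3133, 3137 and 3188 CPM untreated and 2732, 2843 and 2920.1 CPM after IFNG in WT1, 3731, 3736 and 3786 CPM untreated and 3184, 3247 and 3456 CPM after IFNG in WT2 and 3582, 3728 and 3941 CPM untreated and 3304, 3318 and 3355 CPM after IFNG in WT3. In KO1 its levels were 3597, 3626 and 3664 CPM untreated and 3056, 3103 and 3119.9 CPM after IFNG, and in KO2 3471, 3653 and 3938 CPM untreated and 3181, 3338 and 3388 CPM after IFNG. In all 5 clones the treated libraries lay below the untreated ones. Of all genes that averaged 1 CPM or more, this pattern was seen in 17.5% in WT1, 25.5% in WT2, 25.5% in WT3, 26.2% in KO1 and 21.9% in KO2. The log2FC was -0.17 ± 0.032 in WT2, -0.16 ± 0.043 in WT3 and -0.20 ± 0.053 in KO1, with edgeR adjusted p-values of 0.000247, 0.0054 and 0.0105. In WT1 and KO2 it was -0.17 ± 0.064 and -0.16 ± 0.059 with adjusted p-values of 0.0864 and 0.0585. With DESeq2 both passed the threshold (0.0241 and 0.013), which makes 5 of 5 clones. Over all alternative fits in edgeR and DESeq2, adjusted p-values ran from 0.007 to 0.228 in WT1 and from 0.00532 to 0.221 in KO2. The WT3 call was lost without untreated library 3 (0.0508), and KO2 passed the threshold without untreated library 1 (0.0307) or treated library 1 (0.0435). After the counts of Gm49369 were taken away, the log2FC ran from -0.26 in WT3 to -0.17 in WT2, with calls in the same 3 clones.

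*Ctsa*, *Ctsb* and *Ctsz* had log2FC of -0.013 to 0.048, -0.045 to 0.0076 and -0.034 to 0.0097 over the clones, and the lowest edgeR adjusted p-value of each was 0.294, 0.31 and 0.612. Their treated and untreated libraries overlapped in every clone. *Ctsh* had a log2FC of -0.24 ± 0.091 in WT2 with an adjusted p-value of 0.045, on levels of 11, 11.3 and 12 CPM untreated and 9.09, 9.63 and 9.9 CPM after IFNG. That call was lost with DESeq2 (adjusted p-value 0.24) and in the fits that left out any 1 library other than untreated library 2 (0.0594 to 0.159). In the other clones the log2FC of *Ctsh* ran from -0.23 in WT1 to 0.29 in KO1, and the KO1 value had an SE of 0.28. Leaving out 1 library moved it between -0.48 and -0.043 in WT1 and between 0.031 and 0.62 in KO1, and in WT1 it passed the threshold without treated library 3 (adjusted p-value 0.0472).

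Whether the IFNG response of the cathepsins differs between the KO and WT clones was tested over all 30 libraries. This test treats the libraries of a clone as separate replicates. Electroporation and selection went with the deletion, so it compares these clones and not the deletion alone. None of the 8 genes passed this test in edgeR, with 0 at an unadjusted p-value under 0.05, and DESeq2 also called 0. The share of all genes called was 1.02%. The difference (KO response minus WT response, log2) was 0.061 ± 0.053 for *Ctsc*, 0.028 ± 0.06 for *Ctss*, 0.037 ± 0.04 for *Ctsl* and -0.023 ± 0.039 for *Ctsd*, with edgeR adjusted p-values of 0.824, 0.951, 0.872 and 0.934. *Ctsh* had the largest value, 0.22 ± 0.15 (adjusted p-value 0.762). Nor did any of the 8 pass a test of any difference in response among the 5 clones, where 3.68% of all genes did, with 0 of the 8 at an unadjusted p-value under 0.05 and 0 called by DESeq2. The widest difference between the responses of any pair of clones was 0.15 for *Ctsc* (adjusted p-value 0.785) and 0.12 for *Ctss* (0.928). So the different numbers of calls in WT and KO clones, such as those of *Ctsl*, were not accompanied by a difference in response that passed a test.

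Levels before treatment differed among the clones for all 8 tested cathepsins, as they did for 73.2% of all genes. *Ctsh* differed most, with untreated levels of 18, 19.5 and 20.8 CPM in WT3, 11, 11.3 and 12 CPM in WT2 and 5.09, 6.65 and 6.75 CPM in WT1. Levels were 3.44, 3.62 and 3.83 CPM in KO2 and 0.693, 1.03 and 1.57 CPM in KO1. No neighbours in this order overlapped, the mean in WT3 was 17.7 times that in KO1, and the order was the same after IFNG. The widest difference was 4.16 on the log2 scale for *Ctsh* (edgeR adjusted p-value 2.17e-15) and 0.69 for *Ctsc*, 0.61 for *Ctss*, 0.56 for *Ctsz*, 0.52 for *Ctsb*, 0.52 for *Ctsa*, 0.24 for *Ctsd* and 0.23 for *Ctsl*, beside a median of 0.44 over all genes.

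WT1 had the lowest untreated levels of *Ctsb*, *Ctsc* and *Ctsd*. *Ctsb* was at 2995, 3060.0 and 3072 CPM in WT1 and at 3989.9, 4009 and 4149 CPM in WT2, the next clone up, and the libraries of WT3, KO1 and KO2 overlapped at 4186 to 4595 CPM. *Ctsd* was at 3133, 3137 and 3188 CPM in WT1, while the libraries of each of the other 4 clones overlapped those of the next clone in order, and without WT1 its differences among clones no longer passed the test (adjusted p-value 0.63). Of the 10 macrophage markers, 4 were also lowest in WT1 and 6 were not, their summed level was lowest there (4957 to 5146 CPM), and their part in these differences was not tested. For *Ctsl*, the difference among clones no longer passed the test without KO2 (adjusted p-value 0.0652).

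**Figure D3:**
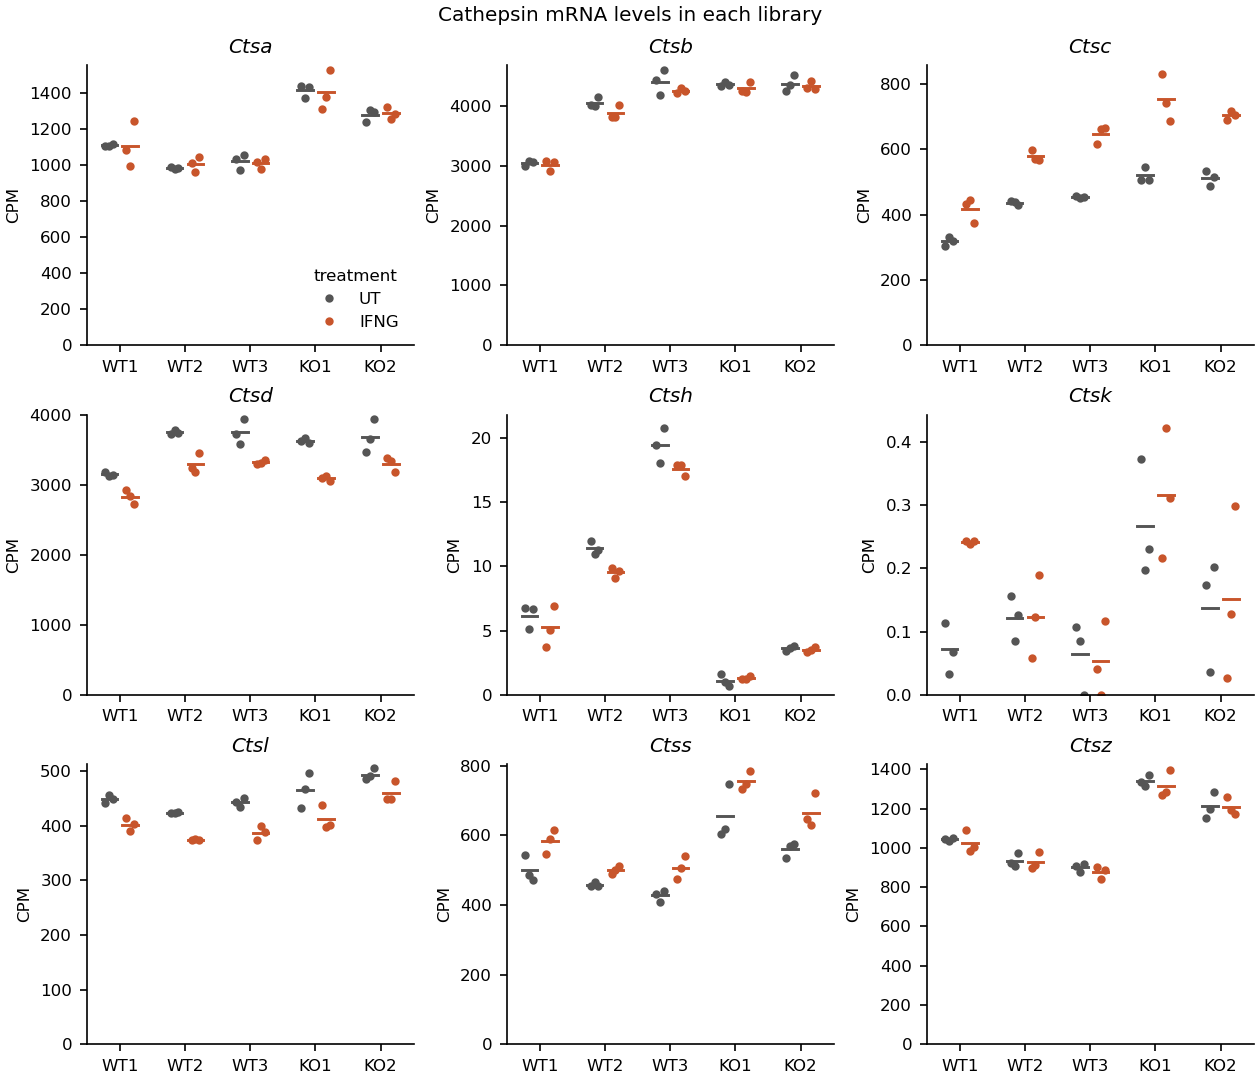
CPM of each cathepsin gene in every library (points) by clone and treatment, with the mean of each group of 3 libraries as a line. *Ctsh* runs from 20.8 CPM in WT3 down to 0.693 CPM in KO1, *Ctsa* and *Ctsz* are higher in both KO clones than in the WT clones, and *Ctsk* stays at or below 0.423 CPM in every library.

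KO and WT clones were then compared at the same treatment. In untreated cells, *Ctsa*, *Ctsc*, *Ctsl*, *Ctss* and *Ctsz* were higher and *Ctsh* was lower in the KO clones, 6 of 8 genes tested, where 26.6% of all genes passed the test (12.2% higher and 14.4% lower). After IFNG these 6 genes were called in the same direction, where 23.9% of all genes passed (10.9% higher and 13% lower). The median log2FC of the 8 genes was 0.27 untreated and 0.296 after IFNG, beside -0.0004 and 0.00097 over all genes. These tests treat the 3 libraries of a clone as separate replicates. With counts summed per clone, 3 WT clones against 2 KO clones, none of the 8 genes passed edgeR's test in either treatment, where 0.00618% of all genes untreated and 0.00617% after IFNG (1 gene each) passed it. *Ctsa*, *Ctsh*, *Ctss* and *Ctsz* (4 of 8) had an unadjusted p-value under 0.05 in both treatments, as had 11.4% of all genes untreated and 11.3% after IFNG. *Ctsk* passed the count filter in this fit and was not called (adjusted p-values 0.422 and 0.795). Electroporation and selection of KO lines went with the deletion, and their parts cannot be told apart.

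*Ctsz* ranged over 879, 922 and 1049 CPM (lowest, median and highest) in the 9 untreated WT libraries and over 1152, 1298 and 1373 CPM in the 6 untreated KO libraries. *Ctsa* ranged over 969.7, 1032 and 1114 CPM in WT and 1235, 1337 and 1439 CPM in KO. For both genes the KO1 mean was above that of KO2, the KO2 mean was above that of each WT clone, and KO and WT libraries overlapped in neither treatment. The log2FC was 0.41 ± 0.053 for *Ctsz* and 0.37 ± 0.047 for *Ctsa* in untreated cells, with edgeR adjusted p-values of 4.06e-05 and 3.14e-05, and 0.42 ± 0.056 and 0.38 ± 0.057 after IFNG, with 5.97e-05 and 0.000192. With counts summed per clone, the untreated values were 0.41 ± 0.10 and 0.37 ± 0.099, with adjusted p-values of 0.301 and 0.303.

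*Ctss* ranged over 409.6, 456 and 545 CPM in untreated WT and 536, 590.5 and 749 CPM in untreated KO libraries, which overlapped in the range of WT1 and KO2. After IFNG the ranges were 475, 512 and 614 CPM and 629, 727 and 786 CPM and did not overlap. The log2FC was 0.39 ± 0.069 untreated and 0.43 ± 0.064 after IFNG, with edgeR adjusted p-values of 0.000603 and 0.000171. *Ctsc* ranged over 305, 439 and 457 CPM in WT and 489, 512 and 546 CPM in KO before treatment, and over 374, 569 and 665 CPM and 688, 711 and 831 CPM after IFNG, with no overlap in either. Its log2FC was 0.35 ± 0.091 untreated and 0.41 ± 0.12 after IFNG, with adjusted p-values of 0.00876 and 0.0155. The *Ctsc* call was lost in untreated cells without KO1 (0.0968) or KO2 (0.0527), and after IFNG likewise (0.18 and 0.0531).

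*Ctsl* had the smallest difference among the called genes, 0.12 ± 0.038 untreated and 0.17 ± 0.044 after IFNG, with edgeR adjusted p-values of 0.023 and 0.00952. Its KO and WT libraries overlapped, and the call was lost without WT2 or KO2 in both treatments and without WT3 or KO2 untreated library 3 in untreated cells (adjusted p-values 0.0508 to 0.275). *Ctsb* had log2FC of 0.18 ± 0.092 and 0.22 ± 0.089 with adjusted p-values of 0.153 and 0.0893, and passed the threshold without WT3 (0.0259 and 0.0143). *Ctsd* had log2FC of 0.039 ± 0.056 and 0.023 ± 0.058 with adjusted p-values of 0.648 and 0.809.

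*Ctsh* ranged over 5.09, 11.3 and 20.8 CPM in the untreated WT libraries and 0.693, 2.5 and 3.83 CPM in the untreated KO libraries, without overlap. Its log2FC was -2.36 ± 0.41 untreated and -2.15 ± 0.39 after IFNG, with edgeR adjusted p-values of 0.000534 and 0.000816, and with counts summed per clone -2.38 ± 0.69 and -2.18 ± 0.64, with adjusted p-values of 0.336 and 0.331. WT1 and KO2 were adjacent in level, with means of 6.16 and 3.63 CPM, while the 3 WT clones spread over 6.16 to 19.5 CPM. Untreated, the log2FC was -1.76 without KO1 and -3.50 without KO2. KO and WT libraries did not overlap for 4 genes untreated and 5 after IFNG out of 8 that averaged 1 CPM or more, against 10.2% and 8.6% of all genes at that level.

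**Figure D4:**
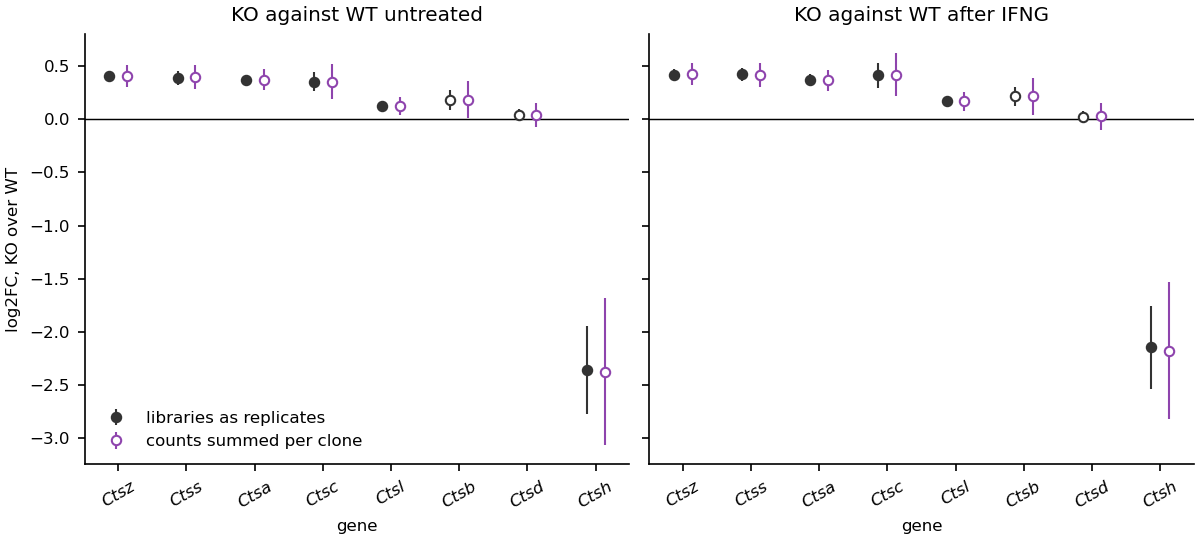
log2FC of KO over WT for the 8 tested cathepsin genes in untreated (left) and IFNG-treated cells (right), fitted with libraries as replicates (dark) or with counts summed per clone (purple). Bars are 1 SE from edgeR and filled points have an adjusted p-value under 0.05, which no gene reached with counts summed per clone.

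Some macrophage markers were also higher in the KO clones. In untreated cells 5 of 10 passed the test as higher and 1 as lower, and 4 and 1 after IFNG. Of all genes, 12.2% were called higher and 14.4% lower untreated, and 10.9% and 13% after IFNG. *Adgre1* had a log2FC of 2.39 ± 0.48, and *Csf1r*, the receptor for the growth factor CSF1, 0.22 ± 0.039, with edgeR adjusted p-values of 0.00164 and 0.000488, while *Mertk*, a receptor for apoptotic cells, had -1.10 ± 0.18 (0.000288). The summed level of the 10 markers was 4957 to 6387 CPM in untreated WT and 6743 to 7697 CPM in untreated KO libraries, and its part in the cathepsin differences was not tested. Of 11 cystatin and stefin genes, whose products inhibit cysteine cathepsins, 3 were tested, and the abundant *Cst3* and *Cstb* were higher in the KO clones, with untreated log2FC of 0.81 ± 0.13 and 0.49 ± 0.12 (edgeR adjusted p-values 0.000223 and 0.00485), and were called in no clone after IFNG. Both were named after their values were seen. The KO against WT tests of these markers and inhibitors treat the 3 libraries of a clone as separate replicates. With counts summed per clone, 1 gene of 16189 was called in untreated cells.

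Wider lists of lysosomal genes were also tested for an IFNG response. Over all genes tested, 11.8% to 18.6% per clone were called higher and 9.47% to 17.5% lower. Of 14 other cathepsin genes, 2 had enough counts for a test and both were higher after IFNG in all 5 clones. *Ctse*, an aspartic protease, rose from means of 0.572, 1.99, 1.5, 2.06 and 0.325 CPM in WT1, WT2, WT3, KO1 and KO2 to 2.63, 9.83, 8.67, 6.7 and 2.53 CPM, a log2FC of 1.73 to 2.92. Its response differed among clones (edgeR adjusted p-value 0.00794). *Ctso*, a cysteine cathepsin, had a log2FC of 0.31 to 0.38. Neither differed between KO and WT clones by the test in untreated or treated cells. The other 12 had a median under 1 CPM, and 10 of them had no count.

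Of 12 sorting and maturation genes, the test called 1 higher and 0 lower in WT1, 2 higher and 2 lower in WT2, 2 higher and 2 lower in WT3, 3 higher and 1 lower in KO1 and 3 higher and 1 lower in KO2. For these and the other lysosomal genes, the shares over all genes were 11.8% to 18.6% higher and 9.47% to 17.5% lower per clone. *Igf2r*, a mannose 6-phosphate receptor, had a log2FC of 0.60 to 1.28 on low levels (1 to 21 CPM) and was called in 5 clones. *Gnptab*, which encodes the enzyme subunits that make the mannose 6-phosphate tag, was higher in 4 clones (0.073 to 0.51 over the 5), and *Gga2*, an adaptor of receptor transport, was lower in 4 (-0.30 to -0.16). Of 35 other lysosomal genes, 32 were tested, with 4 higher and 1 lower in WT1, 5 higher and 4 lower in WT2, 8 higher and 6 lower in WT3, 6 higher and 1 lower in KO1 and 6 higher and 1 lower in KO2. *Pla2g15*, a lysosomal phospholipase, had a log2FC of 0.46 to 1.04 and *Ppt1*, which removes palmitate from proteins, 0.41 to 0.60, both higher in all 5 clones, while *Npc1*, the cholesterol exporter, was lower in all 5 (-0.34 to -0.24).

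Among the 11 invariant chain and MHC class II loading genes, in which *Ctss* is known to act, 5 to 7 were tested per clone, with 0 higher and 0 lower in WT1, 2 higher and 1 lower in WT2, 1 higher and 0 lower in WT3, 1 higher and 0 lower in KO1 and 1 higher and 0 lower in KO2. A median under 1 CPM was found for 7 of the 11. *H2-Aa* and *H2-Eb1* (named after their values were seen) were at most 0.0732 and 0.19 CPM in any library. *Ifi30*, a thiol reductase that unfolds antigens for the cathepsins, had a log2FC of 0.16 to 0.20 and was called in 4 clones, and *Cd74*, the invariant chain, was called higher in 1 clone, with a mean log2FC of 0.11 over the 5 (this gene was named after its values were seen). Beside these counts, 11.8% to 18.6% of all genes were called higher per clone and 9.47% to 17.5% lower. Of 8 transcription factors, 4 were higher and 2 lower in all 5 clones. *Irf1* had a log2FC of 4.97 to 5.33 and *Tfec*, of the family that reads the E-box, 2.98 to 4.54. *Tfeb* and *Mitf*, of the same family, were lower in all 5 clones, by 0.65 to 0.98 and 0.69 to 1.08 on the log2 scale (both were named after their values were seen).

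**Figure D5:**
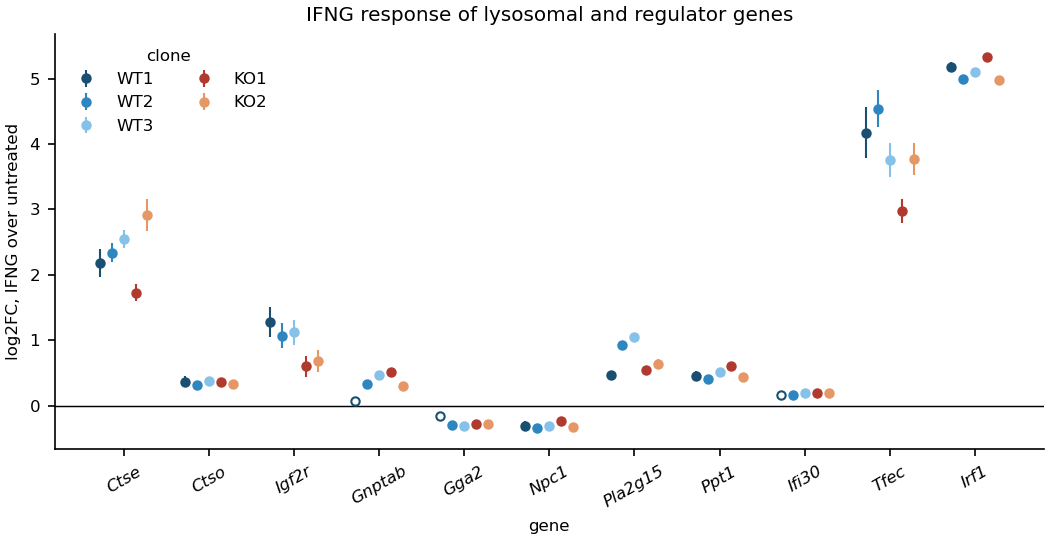
log2FC of IFNG-treated over untreated cells in each clone for the genes of the lysosomal and regulator lists that passed the test in the same direction in at least 3 clones (up to 3 a list, 1 of them not shown). Bars are 1 SE from edgeR and filled points have an adjusted p-value under 0.05. *Ctse*, *Tfec* and *Irf1* lie well above the range of 0.31 to 0.38 of *Ctso*.

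Median log2FC after IFNG ran over the clones from -0.0172 to 0.039 for the sorting genes and from -0.0228 to 0.0111 for the other lysosomal genes. Between KO and WT clones, 4 of 12 sorting genes were called higher in untreated cells and 5 after IFNG, with none lower, and 1 of 32 other lysosomal genes was called higher and 3 lower in untreated cells and 2 higher and 4 lower after IFNG. The median log2FC of the 32 genes was 0.0071 and 0.0072 in untreated and treated cells. Beside these, 5 of 8 cathepsins were called higher and 1 lower in either treatment, a contrast that is given as counts and was not tested. Of all genes, 12.2% were called higher and 14.4% lower untreated, and 10.9% and 13% after IFNG. All these calls treat the libraries of a clone as separate replicates. With counts summed per clone, none of the 8 cathepsins was called in either treatment.

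For each cathepsin, the gene most alike was taken as the non-member with the highest Pearson r of log2(CPM + 0.5) over the 10 means of clone and treatment, among 3253 genes that averaged 10 CPM or more and had an SD of 0.2 or more over these means. These were *Dstn* for *Ctsa* (r = 0.991), *Diaph2* for *Ctsb* (0.989), *Gm44751* for *Ctsc* (0.967), *Bahd1* for *Ctsd* (0.975), *Ogfrl1* for *Ctsh* (0.986), *Numb* for *Ctsl* (0.963), *Cdkn1a* for *Ctss* (0.98) and *Tmsb4x* for *Ctsz* (0.985). The *Ctsk* value is not given because its counts were too few. The 10 means share 5 clones and the same scaling of the libraries, and the highest of 3253 values is large by selection, so these are descriptions. The *Ogfrl1* means ran from 196 CPM in untreated WT3 to 75.6 CPM in untreated KO1. Among the cathepsins, *Ctsa* and *Ctsz* were the most alike pair (r = 0.986).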

How the data were processed

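Polyadenylated RNA of 5 J774A.1 clones, untreated or treated with IFNG, was sequenced as paired reads. The authors trimmed reads, aligned them to mm10 with HISAT2 2.1.0, kept uniquely aligned fragments, merged technical replicates with SAMtools 1.10 and counted fragments in exons per gene with featureCounts 1.6.2, stranded and counting a fragment for every gene it overlapped. The header of the deposited table names the Gencode vM18 annotation, whereas RefSeq gene models are named in the methods of the paper. Columns named wtc1 and wtc3 were taken as WT2 and WT3, which rests on their names and on which deposited tables hold them. The values used here are the deposited counts, not normalized. Of 14 deposited tables, 13 were not used, since by their column names they hold counts of subsets of the same libraries.

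Here counts were scaled by TMM factors to CPM and tested with edgeR 4.0.16 in R 4.3.3 (filterByExpr, glmQLFit, glmQLFTest) over all genes, with Benjamini-Hochberg adjustment and a threshold of 0.05. An SE is the size of the log2FC over the root of its F statistic. Tests of several clones at once give the widest log2 difference between clones. Responses within a clone used its 6 libraries, and the other comparisons all libraries of the treatments concerned. Totals of 15566122 to 37992642 counts leave little counting error for all members except *Ctsh* and *Ctsk*. Each of the 30 pairs of libraries within a group showed spread beyond counting noise (chi-square per degree of freedom 1.88 to 17.9). Symbols and principal transcripts came from GENCODE vM21 and promoters from RefSeq on GRCm38.p6.

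Alternatives were DESeq2 1.42.0, RLE factors, no count filter, at least 10 counts in every library, 1 fit over all 30 libraries, counts summed per clone, and leaving out each library or clone. Leaving out each library in the comparisons across clones, *Ctsd* without Gm49369 (also per unshared exon length) and principal transcript length were chosen after seeing the data. The labels mention more than 1 RNA input and adapter set without assigning them to libraries, so no batch could be checked. On simulated data with 50 changed genes per fold size, edgeR recovered 34 genes changed 1.25-fold in the comparison of WT2 (13090 genes), 32 in the KO against WT difference of responses (14682 genes), 11 in the difference of responses among the 5 clones (14870 genes) and 20 in the untreated KO against WT comparison (13886 genes). False calls numbered 12, 10, 3 and 5 in these comparisons. For untreated levels among the 5 clones (14467 genes), edgeR recovered 30 genes changed 1.25-fold and made 19 false calls, the most of the simulated comparisons. In both simulations among 5 clones, only 1 clone was changed. Simulated libraries were drawn independently, so the libraries of a clone shared no difference from other clones. The recovery between KO and WT therefore leaves out variation between clones. Of the responses within a clone, only that of WT2 was simulated, so recovery in the other clones is not known. Pairs of libraries had a chi-square per degree of freedom of 1.88 to 4.14 in WT2. The highest values were 12.8 in WT1, 17.9 in WT3, 8.93 in KO1 and 16.1 in KO2. Members and gene lists were chosen with earlier results of these data known. All 9 members are named. From each other list the text names up to 3 genes with the largest mean log2FC among those that passed the IFNG test in the same direction in at least 3 clones, and others are marked as named after their values were seen. Some items that these rules would name are not reported here.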

Additional observations from a re-analysis of the deposited data

Results flagged for a closer look

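In the Dixon test of 36 groups of libraries, 2 libraries stood apart. For independent libraries this test flags about 1 group in 20 by chance. Each group here pooled the libraries of 3 WT or 2 KO clones, whose levels differed, so that rate need not hold. *Ctsa* was at 1245 CPM in WT1 IFNG library 3, the highest of the 9 treated WT libraries, where the next was at 1080 CPM. *Ctsc* was at 831.3 CPM in KO1 IFNG library 1, the highest of the 6 treated KO libraries. No cathepsin had an IFNG response that differed between KO and WT clones by the test of that difference.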

How the results depend on the processing

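No paired analysis was possible because the columns of the count table carry no replicate number, so neither a replicate block nor leaving out a replicate number in every clone was run. Of the 8 cathepsins tested, the number called in WT1 was 2, and it was 4 with DESeq2, 1 with at least 10 counts in every library and 4 in 1 fit over all 30 libraries, which gave 3 in WT2 in place of 5. With counts summed per clone, 0 were called between KO and WT clones in either treatment in place of 6. This fit has 3 residual degrees of freedom and called 1 gene of 16189 untreated and 1 of 16197 after IFNG, in place of 3689 and 3258. Leaving out 1 library gave 1 to 3 calls in WT1, 4 to 5 in WT2, 3 to 4 in WT3, 2 to 4 in KO1, 2 to 3 in KO2, 8 to 8 among untreated clones, 5 to 6 between untreated KO and WT clones and 6 to 6 between treated ones. Leaving out 1 clone gave 7 to 8, 4 to 6 and 4 to 7 of the last 3. Differences of response between KO and WT or among clones stayed at 0 calls in all these fits.

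Changes of sign under other settings touched only values that passed no test. In 1 fit over all 30 libraries, the log2FC after IFNG was -0.0057 for *Ctsz* in WT2 and -0.0093, -0.025 and -0.023 for *Ctsa*, *Ctsz* and *Ctsb* in KO1. In KO1, DESeq2 gave -0.0035 for *Ctsz* and -0.0015 for *Ctsb*, and no count filter gave -0.012 and -0.010. With at least 10 counts in every library, *Ctsa* in WT3 was 0.0012 and *Ctsz* in KO2 0.0011, and without a filter *Ctsz* in KO2 was 0.0026. The KO against WT difference of responses of *Ctsa* was 0.0016 with DESeq2 and 0.0021 with RLE factors. Leaving out 1 library turned the response of *Ctsa* in WT1 (-0.093 to 0.055), WT3 (-0.036 to 0.019), KO1 (-0.044 to 0.068) and KO2 (-0.013 to 0.026), of *Ctsz* in WT2 (-0.025 to 0.038), KO1 (-0.042 to 0.031) and KO2 (-0.034 to 0.037) and of *Ctsb* in KO1 (-0.014 to 0.018) and KO2 (-0.031 to 0.0058). Leaving out a library or clone turned the difference of responses of *Ctsa* (-0.032 to 0.017), *Ctsz* (-0.0090 to 0.028), *Ctss* (-0.0069 to 0.076) and *Ctsd* (-0.059 to 0.0057), and the KO against WT difference of *Ctsd* untreated (-0.035 to 0.082) and after IFNG (-0.053 to 0.063). The cause was not tested. Depth limits *Ctsh*, with about 1 CPM in KO1, and *Ctsk*.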
